A study of Mus musculus with 7 samples.

Results

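The cytosolic ribosomal protein genes were described here across beta cells of weaned and suckling mice. The members were chosen by name: probe sets whose platform annotation carries a single gene symbol, and whose symbol is that of a protein of the large (Rpl, Rplp) or small (Rps) cytosolic subunit. Kinases of ribosomal protein S6 were left out, as was 1 gene, Rps4l, which RefSeq lists as a transcribed pseudogene. This gave 59 of 19938 genes on the array, 38 of the large (60S) and 21 of the small (40S) subunit, with 210 probe sets in all. A further 24 protein-coding RefSeq genes that fit the naming rule, such as Rpl11, Rpl3 and Rps27a, were not analysed here, since no probe set carried their symbol alone.

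The arrays measured total RNA of fluorescent cells sorted from islets at postnatal day 25. All mice were of the outbred ICR strain background and carried insulin-Cre and Rosa26-LSL-YFP, so that Cre driven by an insulin promoter switches on a yellow reporter in insulin-producing cells and their descendants. The weaned group (replicates 4, 5 and 12) had been separated from the mother early, at day 18, and the suckling group (replicates 2, 9, 11 and 12) had not been weaned. Each mouse gave 2000 to 6000 sorted cells and 1 array. Group means are over 3 weaned and 4 suckling arrays throughout.

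The cytosolic ribosome is built from a small subunit, which reads the messenger RNA, and a large subunit, which joins amino acids. Its proteins are made in nearly equal numbers, and their messenger RNAs are abundant in growing or secreting cells. Most of these messenger RNAs begin with a stretch of pyrimidines at the cap (the TOP motif), through which the kinase mTOR and the protein Larp1 set their translation according to nutrient supply. Beta cells use this machinery to make proinsulin. Messenger RNA levels, which the arrays measured, do not report that translational step.

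The start sites of some members are shown because the pyrimidine stretch is what this gene family is known for. They include members with small log2 differences, such as Rpl27a (0.051), Rplp2 (0.042) and Rps6 (0.035). The examples do not give the share of long runs in the family, which follows below. Each line gives 30 bases of RefSeq promoter sequence, 15 before and 15 from the annotated start, 5′ to 3′ on the gene's strand in build GRCm38.p6, with the longest run of C or T in capitals. The first group are members with a long run.
Rpl14 (chr9:120571502-120571531, + strand): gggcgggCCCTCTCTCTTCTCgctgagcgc
Rpl34 (chr3:130730323-130730352, - strand): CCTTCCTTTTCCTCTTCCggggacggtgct
Rpl7a (chr2:26910792-26910821, + strand): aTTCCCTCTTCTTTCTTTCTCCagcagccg
Rpl27a (chr7:109519180-109519209, + strand): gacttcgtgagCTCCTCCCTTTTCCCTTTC
Rps6 (chr4:86857353-86857382, - strand): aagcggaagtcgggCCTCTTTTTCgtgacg
Rplp2 (chr7:141447636-141447665, + strand): tgcgtcagcgTCTTCCTTTCgccgccggac
The second group are members whose annotated start has a shorter run in this window.
Rps21 (chr2:180257364-180257393, + strand): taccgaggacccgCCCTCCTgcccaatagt
Rps25 (chr9:44407699-44407728, + strand): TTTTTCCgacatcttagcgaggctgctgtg
Rps3a1 (chr3:86142654-86142683, - strand): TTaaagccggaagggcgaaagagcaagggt
Rpl24 (chr16:55966260-55966289, + strand): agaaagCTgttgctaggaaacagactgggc

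Promoter sequence was matched by gene ID for 48 of the 59 members. A run of at least 8 pyrimidines lay within 15 bases of the start in 17 of them (35.4%), against 2177 of 15515 other genes on the array (14.0%). The hexamer CCGGAA, the core recognised by ETS-family factors such as GABP, occurred on either strand of the 300-base window in 23 members (47.9%) and 3076 other genes (19.8%). The octamer AAGATGGC, part of the YY1 motif, occurred on either strand in 3 members (6.25%) and 527 other genes (3.40%). Annotated starts can lie some bases from the cap site, and a match is a description of letters only. Of the 17 members with a pyrimidine run, 13 had their higher mean in the weaned group, and the median log2 difference was 0.042. Of the 31 without one, 21 did, and the median was 0.066. Rpl14 and Rpl34, both with long runs, had opposite differences, as given further on.

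Before the members, the arrays themselves: array medians lay between 14.1 and 14.9 on the linear intensity scale, and the number of arrays limits the precision. The 9 beta-cell markers measured, among them Ins2, Iapp and Ucn3, had array means between 9.69 and 9.85 log2 units in the weaned group and between 9.71 and 9.82 in the suckling group. Of the 9, 4 had the higher mean in weaned mice, among them Pdx1 (0.33, SE 0.13, unadjusted p = 0.0344, limma adjusted p = 0.634). Single markers differed widely in signal: Mafa was at 5.83 and 6.01 (weaned and suckling means), Ins2 at 8.25 and 8.27, and Iapp bright at 12.5 in both groups. The alpha-cell hormone gene Gcg was also bright (11.9 ± 0.32, SD, against 12.1 ± 0.16 log2 units), as was Sst of delta cells (11.8 ± 0.39 against 12.0 ± 0.038). The hormone genes Ppy (11.5 and 11.2) and Pyy (11.7 in both groups) were bright too. Of the other alpha-cell markers measured, Ttr was bright (10.6 and 10.4). Irx1 (4.20 and 4.13), Slc38a5 (4.78 and 4.59) and Irx2 (4.59 to 5.29 across the arrays) were lower. What gave the hormone signal was not tested. Acinar markers varied most: the mean of 18 ran from 3.61 to 6.10 on the weaned and from 3.99 to 7.63 on the suckling arrays, and 17 of the 18 had a lower mean in weaned mice. Endothelial, leukocyte and mesenchyme lists had array means of 2.87 to 3.55 log2 units, and 6 duct markers 5.83 to 6.52. Rgs5 (-0.54) and Col1a2 (-0.29) of mesenchyme and Muc1 of duct (-0.65) lay wholly lower in weaned mice, and Tyrobp of leukocytes (0.30) wholly higher. Over all genes 3.43% lay wholly lower and 3.9% wholly higher. The weaned mean was higher in 3 of 9 mesenchyme, 3 of 9 leukocyte and 3 of 6 duct markers. The part of these markers in the results was not tested. In sorted bulk cells, fewer cells of a type and less RNA per cell cannot be told apart. All weaned arrays are labelled L13 and all suckling arrays L14; the labels do not explain these codes, and they cannot be told apart from weaning. Nothing in the labels says whether the mice came from separate litters.

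The comparison of weaned with suckling mice asks how beta-cell expression at the same age differs after early weaning. Most ribosomal protein genes differed little between the groups, and more of the small differences were on the weaned side. The weaned mean was the higher one in 45 of the 59 members (76.3%, against 50.1% of all genes), and the median log2 difference, weaned minus suckling, was 0.048 (all genes: 0.00047). The members are brighter than most genes, with a median level of 10.97 log2 units against 4.25. The values over all genes, here and below, are not matched for signal. No member passed an adjusted p of 0.05 by limma with Benjamini-Hochberg adjustment over all genes, where 3 of 19938 genes (0.015%) did, and the smallest adjusted p of a member was 0.606. Before adjustment, 3 members were higher and 1 was lower at p under 0.05, which is 5.08% and 1.69% of the family. Over all genes the background was 4.39% higher and 3.19% lower, so these counts are near the background.

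The differences were small for most of the family. For 35 of the 59 members the log2 difference was under 0.1 in size, for 51 it was under 0.2, and 8 reached 0.2 or more. The range between the lower and upper quartile of the members ran from 0.00095 to 0.12, against -0.11 to 0.12 for all genes. The standard error behind a member's difference had a median of 0.11 log2 units (all genes: 0.14). The members' own spread between arrays of a group was smaller than that of genes at large, with a median pooled SD of 0.086 log2 units against 0.19, and limma draws such small spreads up towards that of all genes.

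**Figure D1:**
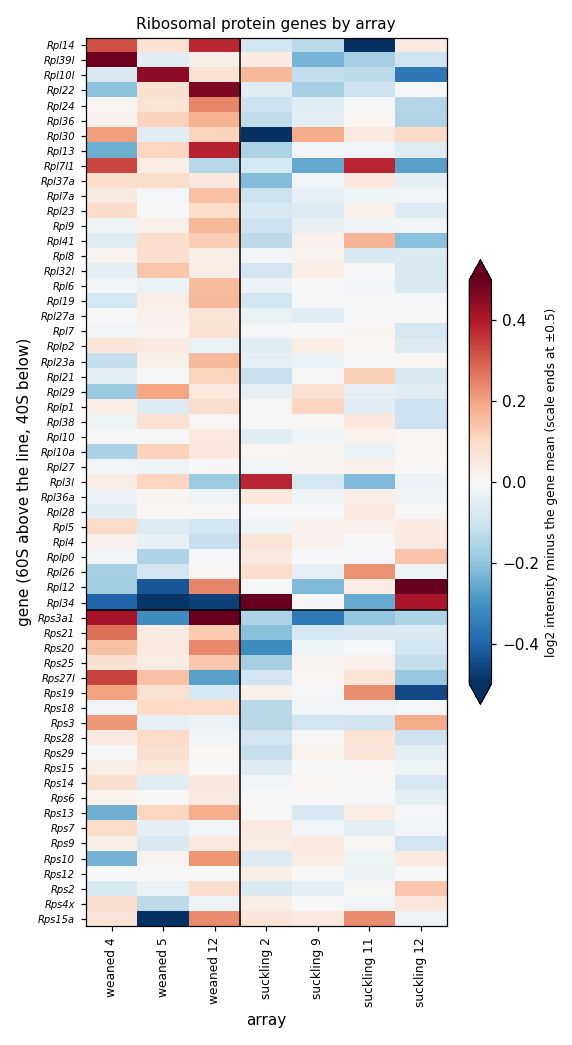
Log2 intensity of each of the 59 ribosomal protein genes (rows, 60S above the line and 40S below) on the 7 arrays (columns), as the deviation from the gene's mean over all arrays. Most cells are pale, Rpl34 is low on the 3 weaned arrays, and weaned replicate 12 is the highest array for 19 members.

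**Figure D2:**
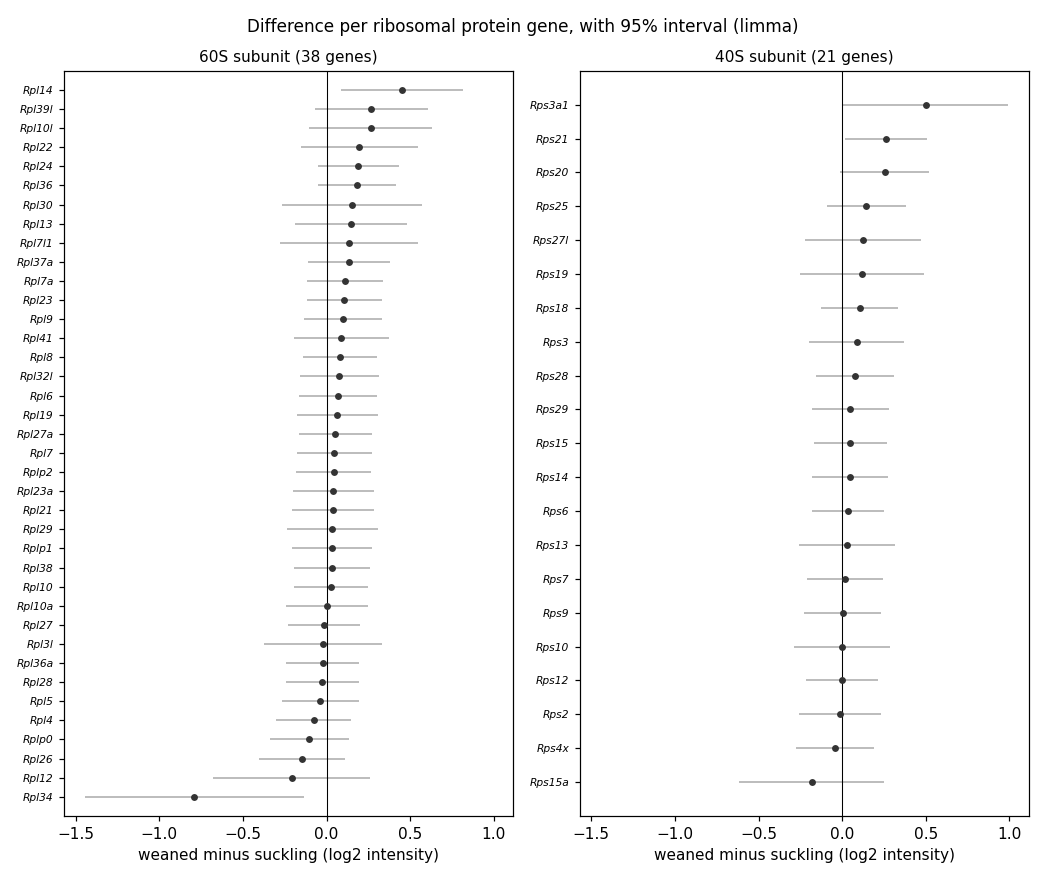
Difference of weaned minus suckling means on the log2 scale for each ribosomal protein gene, with limma's 95% interval, by subunit. Of the 59 points, 45 lie to the right of 0, and the intervals of Rpl14, Rps21, Rps3a1 and Rpl34 leave out 0, before adjustment for the number of genes.

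Some members separated the groups in spite of small differences. The 3 weaned arrays all lay above the 4 suckling arrays in 8 members (13.6%; 3.9% of all genes) and all below them in 1 member (1.69%; 3.43% of all genes). The 8 were Rpl14, Rps21, Rps20, Rpl36, Rpl24, Rps25, Rpl7a and Rpl8, and the 1 was Rpl34. Members are not independent of each other, since they share the arrays and their scaling, and probe sets of this family can share sequence with each other's processed copies. With suckling replicates 2 and 9 left out, the arrays with the most acinar signal, 11 members lay wholly above and 2 wholly below, 18.6% and 3.39%, against 9.11% and 10.3% of all genes.

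Averaged over all 59 members, weaned replicates 4, 5 and 12 were at 10.05, 10.03 and 10.11 log2 units. The values for suckling replicates 2, 9, 11 and 12 were 9.998, 10.001, 10.03 and 9.995. The group means were 10.06 ± 0.04 (SD, n = 3) and 10.01 ± 0.01 (SD, n = 4), 0.056 apart, and the groups came close, with weaned replicate 5 just above suckling replicate 11. Weaned replicate 12 was the highest array for 19 members and the lowest for 3. Suckling replicates 2 and 12 were the lowest for 16 and 15 members. Acinar markers were at 7.63 and 5.00 log2 units on those 2 suckling arrays and at 6.10 on weaned replicate 12, and with the acinar mean as a covariate the members' median difference was 0.050 and 46 members were higher. After centring of the arrays on their medians the members' median was 0.028 with 41 higher, and after quantile normalization it was 0.030 with 39 higher. Without weaned replicate 12 it was 0.033 with 38 higher.

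**Figure D3:**
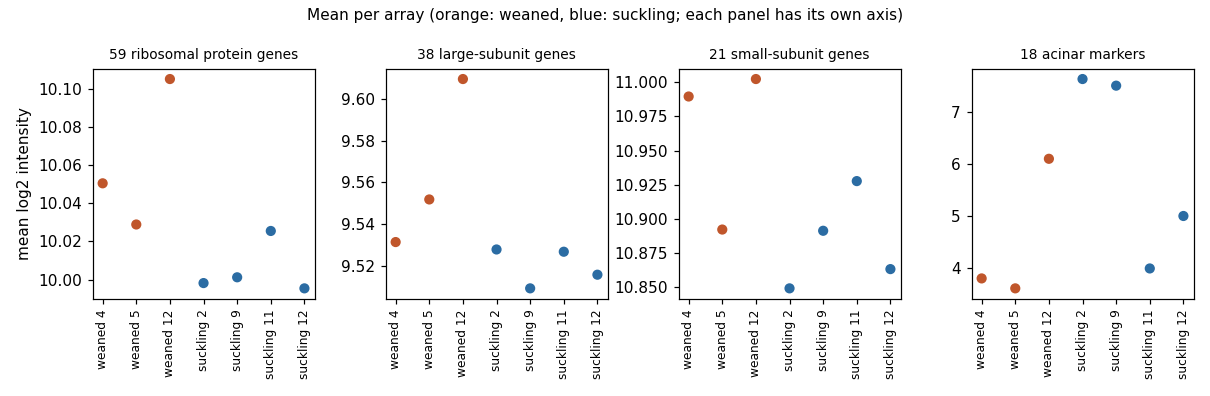
Mean log2 intensity per array of all 59 ribosomal protein genes, of the 38 large-subunit and 21 small-subunit genes and of 18 acinar markers, in 4 panels with separate axes. The means over all members run from 9.995 to 10.11, while the acinar mean spans 3.61 to 7.63.

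Among proteins of the large subunit, Rpl14 and Rpl34 had the widest differences, in opposite directions. Rpl14 measured 8.52, 8.26 and 8.57 log2 units in weaned replicates 4, 5 and 12, and 8.10, 8.06, 7.61 and 8.23 in suckling replicates 2, 9, 11 and 12. Every weaned array was above every suckling array, though weaned replicate 5 and suckling replicate 12 differ by little and suckling replicate 11 is lowest. The log2 difference was 0.45 (SE 0.16, 95% interval 0.085 to 0.81, unadjusted p = 0.0209, limma adjusted p = 0.606), and 0.32 to 0.54 with 1 array left out.

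Rpl34 was tight at 7.47, 7.38 and 7.40 log2 units on the weaned arrays and scattered at 9.06, 7.87, 7.61 and 8.28 on suckling replicates 2, 9, 11 and 12. The groups did not overlap, and nearly all of the spread lay within the suckling mice, where replicate 2 stood well above the rest. The log2 difference was -0.79 (SE 0.29, 95% interval -1.45 to -0.14, unadjusted p = 0.0227, limma adjusted p = 0.611). It was -0.51 without suckling replicate 2, which moves the value by over 1.5 times, and -0.57 with the acinar mean as a covariate. Rpl34 has a single probe set here, so no second measurement on the array checks it.

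Further large-subunit members separated the groups by narrow margins. Rpl36 was at 11.47, 11.56 and 11.62 log2 units on the weaned arrays against 11.32, 11.40, 11.46 and 11.30 on the suckling arrays, a difference of 0.18 (SE 0.10, adjusted p = 0.723 by limma). Rpl24, the protein altered in Belly spot and tail mice, was at 10.77, 10.83 and 11.00 against 10.66, 10.70, 10.75 and 10.62, a difference of 0.19 (SE 0.11, adjusted p = 0.723 by limma) that became 0.12 when weaned replicate 12 was left out. In both genes the lowest weaned array was barely above the highest suckling array. Rpl7a was at 10.69, 10.64 and 10.79 against 10.54, 10.60, 10.62 and 10.63 (difference 0.11, SE 0.10). Rpl8, which lies close to the catalytic centre, was at 10.45, 10.52 and 10.46 against 10.42, 10.45, 10.36 and 10.36 (difference 0.080, SE 0.098). In these 2 genes too the nearest arrays of the groups almost touched.

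Among proteins of the small subunit, Rps21, Rps3a1 and Rps20 came first by p. Rps21 was at 11.25, 11.01 and 11.10 log2 units on the weaned arrays and at 10.76, 10.88, 10.89 and 10.90 on the suckling arrays. The groups did not overlap, and suckling replicate 2 lay below the other suckling mice. The log2 difference was 0.26 (SE 0.11, 95% interval 0.017 to 0.50, unadjusted p = 0.0386, limma adjusted p = 0.647). The dimmer of its 2 probe sets gave 0.13, with overlapping groups.

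Rps3a1, a protein of the small subunit's platform, was at 10.13, 9.41 and 10.47 log2 units in weaned mice and at 9.56, 9.36, 9.53 and 9.56 in suckling mice. Weaned replicates 4 and 12 were above all suckling arrays while weaned replicate 5 was among them, so the groups overlapped. The log2 difference of 0.50 (SE 0.22, unadjusted p = 0.0474, limma adjusted p = 0.653) became 0.80 when weaned replicate 5 was left out and 0.26 when weaned replicate 12 was. The gene has 1 probe set here, whose deposited value is exactly the same on suckling replicates 2 and 12.

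Rps20, in the head of the small subunit, was at 11.75, 11.66 and 11.85 log2 units against 11.29, 11.59, 11.60 and 11.52. The groups did not overlap, with suckling replicate 2 lowest by far. The difference was 0.25 (SE 0.12, 95% interval -0.013 to 0.52, adjusted p = 0.669 by limma), and 0.18 without that array. Rps25, also in the head and known for its role in initiation at viral internal entry sites, was at 11.54, 11.51 and 11.60 against 11.31, 11.48, 11.50 and 11.35 (difference 0.14, SE 0.11).

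**Figure D4:**
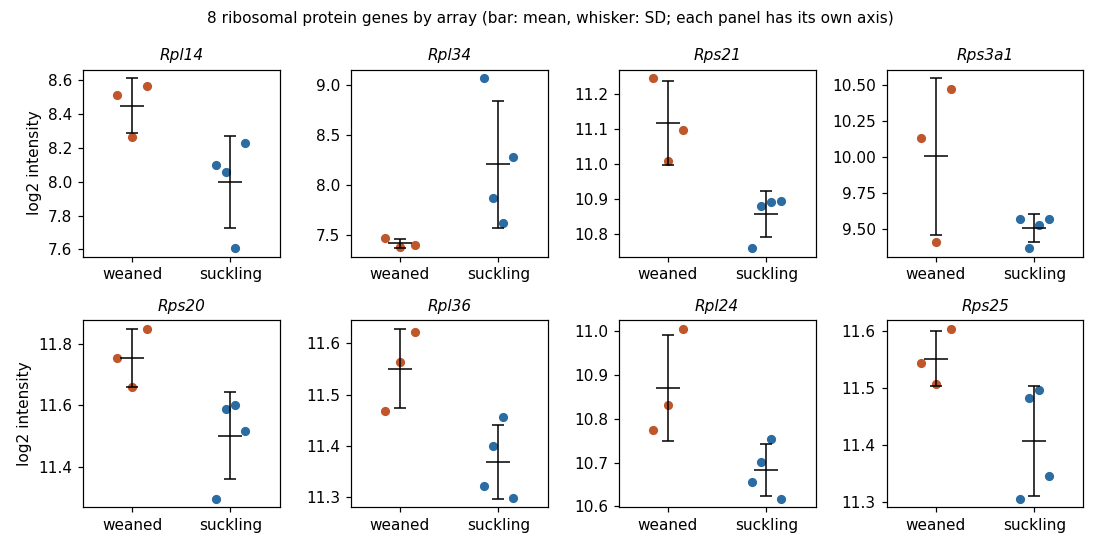
Log2 intensity of 8 ribosomal protein genes on each array, 3 weaned (orange) and 4 suckling (blue), with mean and SD, each panel on its own axis. Only in Rps3a1 among the 8 do the groups overlap, and Rpl34 alone among the 8 is lower in weaned mice (-0.79).

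By subunit, the weaned mean was higher in 28 of 38 large-subunit and 17 of 21 small-subunit members, with medians of 0.049 and 0.048. The small-subunit mean was 10.99, 10.89 and 11.00 log2 units across the weaned arrays and ran from 10.85 to 10.93 across the suckling arrays, with weaned replicate 5 inside the suckling range. Of the proteins of the small subunit's head, 10 of 14 listed were measured and 9 were higher in mean, with a median of 0.081. Their mean was 11.30, 11.30 and 11.31 log2 units across the weaned arrays. It ran from 11.15 to 11.28 across the suckling arrays, so the groups did not overlap. Nor did they for the large-subunit mean, at 9.532 to 9.609 across the weaned and 9.509 to 9.528 across the suckling arrays. The groups were also apart in the mean of all members, so this is not particular to the head. Around the tunnel through which the nascent chain leaves, 4 of 8 listed proteins were measured, 2 higher and 2 lower in mean: Rpl4, which lines the tunnel (-0.077), Rpl26 (-0.15), Rpl19 (0.064) and Rpl23a (0.039). The difference of Rpl23a turned to -0.03 when weaned replicate 12 was left out and to -0.0095 with quantile normalization, and that of Rpl19 was near 0 (9.2e-05) without the same array.

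The stalk that recruits translation factors is made of Rplp0 and dimers of Rplp1 and Rplp2. Rplp0 was at 11.44, 11.30 and 11.45 log2 units on the weaned arrays and 11.50, 11.45, 11.45 and 11.60 on the suckling arrays, a difference of -0.10 (SE 0.10) and overlapping groups. Rplp1 differed by 0.031 (SE 0.11), which turned to -0.01 with quantile normalization, and Rplp2 by 0.042 (SE 0.10). Rpl5, which with 5S RNA and Rpl11 can bind the p53 inhibitor Mdm2, differed by -0.038 (SE 0.10, 95% interval -0.27 to 0.20). The 95% interval of Rplp0 ran from -0.34 to 0.13.

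Members of the family linked in humans to Diamond-Blackfan anaemia, an inherited failure of red cell production, split evenly. Of 19 listed, 9 were measured, of which 5 were higher and 4 lower, and their median was 0.00038, with no unadjusted p under 0.05. Rps19, the gene most often mutated in it, was at 8.66, 8.54 and 8.39 log2 units in weaned mice and 8.49, 8.46, 8.69 and 8.01 in suckling mice (difference 0.12, SE 0.16). It rests on suckling replicate 12, and leaving that array out turned it to -0.017. Rps6, the target of the S6 kinases downstream of mTOR, was nearly constant, at 11.51 to 11.55 log2 units in weaned and 11.46 to 11.51 in the other mice (difference 0.035, SE 0.097), a difference that turned to -0.013 with quantile normalization. Rps12 was flatter still, with 11.60 on all 3 weaned arrays and 11.57 to 11.63 in suckling mice. Its deposited value is exactly the same on the 3 weaned arrays and on suckling replicates 9 and 12. That of Rps6 is the same on weaned replicate 5 and suckling replicates 2 and 9. These may therefore not be independent readings, and what made them equal was not tested. Such equal values on at least 2 arrays occur in 14 of the 59 members (23.7%) and in 9.81% of all genes.

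On the lower side besides Rpl34, the members with the smallest p were Rpl26 (-0.15, SE 0.11), Rplp0, Rpl12 of the stalk base (-0.21, SE 0.21), Rps15a (-0.18, SE 0.19), Rpl4, the X-linked Rps4x (-0.043, SE 0.10), Rpl5, Rpl28 (-0.025, SE 0.097) and Rpl36a (-0.024, SE 0.097). Adjusted p for these 9 ran from 0.808 to 0.973 by limma. Single arrays decided much of these values: Rpl12 was -0.055 and Rplp0 -0.056 when weaned replicate 5 was left out, Rpl12 was -0.056 when suckling replicate 12 was, and Rpl26 was -0.092 when suckling replicate 11 was. Over all 45 members described singly, leaving out 1 array moved the difference by over 1.5 times or turned it in 38; the exceptions were Rpl14, Rps21, Rps20, Rpl36, Rps25, Rps15 and Rpl8. Rps15a rested on weaned replicate 5 at 6.40 log2 units, since the other arrays lay at 6.99 to 7.25, and its difference was 0.073 without that array. On the higher side Rpl22, an RNA-binding member needed for T-cell development in mice, was at 7.58, 7.86 and 8.25 in weaned and 7.62 to 7.78 in suckling mice, with 0.20 as the difference (SE 0.16). It became 0.018 when weaned replicate 12 was left out and 0.35 when weaned replicate 4 was.

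Paralogs of ribosomal proteins, some of which stand in for the common form in particular tissues, ranged from dim to bright. Rpl3l, the muscle form, was at 2.53 to 2.82 log2 units in the weaned and 2.49 to 3.09 in the suckling group. Rpl39l, of male germ cells, was at 1.97 to 2.52 and 1.79 to 2.07. Both lie below the 25th percentile of all genes by signal, and Rpl10l, the autosomal copy of the X-linked Rpl10 used in male germ cells, was at 3.06 to 3.58 and 2.78 to 3.30. Their differences of -0.023, 0.27 and 0.26 (SE 0.16, 0.15 and 0.16) are on dim signal. Leaving out weaned replicate 4 brought Rpl39l to 0.10, and leaving out weaned replicate 5 brought Rpl10l to 0.11. In Rpl3l the sign turned to 0.02 with quantile normalization.

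The paralog Rps27l, which p53 induces in human cells, was bright, at 10.64, 10.45 and 10.03 log2 units on the weaned and 10.21, 10.31, 10.37 and 10.12 on the suckling arrays. The groups overlapped fully, with the lowest and highest values both in weaned mice (difference 0.12, SE 0.15), and leaving out weaned replicate 12 gave 0.29, leaving out weaned replicate 4 gave -0.01. Rpl7l1 ran from 6.32 to 6.80 in weaned and from 6.20 to 6.85 in suckling mice (difference 0.13, SE 0.18; between 0.0062 without weaned replicate 4 and 0.28 without suckling replicate 11), and Rpl32l was at 5.43 to 5.61 and 5.38 to 5.50 (difference 0.077, SE 0.10).

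Signals of different probe sets do not rank transcripts, since each probe set has its own response, but 51 of the 59 members lie at or above the 90th percentile of all genes by signal. The brightest were Rps29 (12.7 ± 0.045, SD, weaned; 12.7 ± 0.077 suckling), Rps28, Rpl41, Rplp1 and Rpl10, with differences of 0.026 to 0.088 and SE of 0.097 to 0.13. The dimmest besides Rpl3l, Rpl39l and Rpl10l were Rpl12 (4.28 ± 0.34 against 4.49 ± 0.33) and Rpl32l. For Rpl12 only 1 probe set carries its symbol alone, so this dim signal need not be that of the whole transcript.

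The 37 members with several probe sets, up to 14 for Rps12, allow the same gene to be read more than once on each array. These probe sets share target sequence and are not independent. Of the 210 probe sets, 19 had values identical to those of another, among them all 3 of Rpl41, and so gave no further reading. Within a member, the difference between weaned and suckling mice varied across its probe sets by a median span of 0.099 log2 units, about 2 times the median difference of the family. In 12 members the probe sets differed in sign (Rpl10, Rpl27, Rpl36a, Rpl5, Rpl6, Rps10, Rps12, Rps15, Rps2, Rps28, Rps4x and Rps7), with a widest span among them of 0.21 in Rps2.

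The dimmer probe sets of a member often gave the more positive difference. This pattern was noticed after the values were seen and is a description. In 20 members the brightest and dimmest probe sets were over 1 log2 unit apart in signal, and in 17 of these (85.0%) the dimmest gave the more positive difference, by a median of 0.10. Over 435 other genes with such a gap it was 252 (57.9%), by a median of 0.038. Rpl7a went from 0.11 at its brightest probe set (10.6 log2 units) to 0.38 at its dimmest (8.06). Rps2 went from -0.013 at 11.1 to 0.19 at 8.96, Rplp1 from 0.031 at 12.1 to 0.21 at 10.2, and Rpl13 from 0.15 at 10.9 to 0.29 at 8.37. The 0.15 of Rpl13 became -0.0063 when weaned replicate 12 was left out. Rpl6 went the other way, from 0.066 to -0.093. Taking the dimmest probe set for every gene gave a family median of 0.12 with 44 members higher, and the mean of probe sets 0.076 with 46 higher; no member passed an adjusted p of 0.05 by limma in either.

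**Figure D5:**
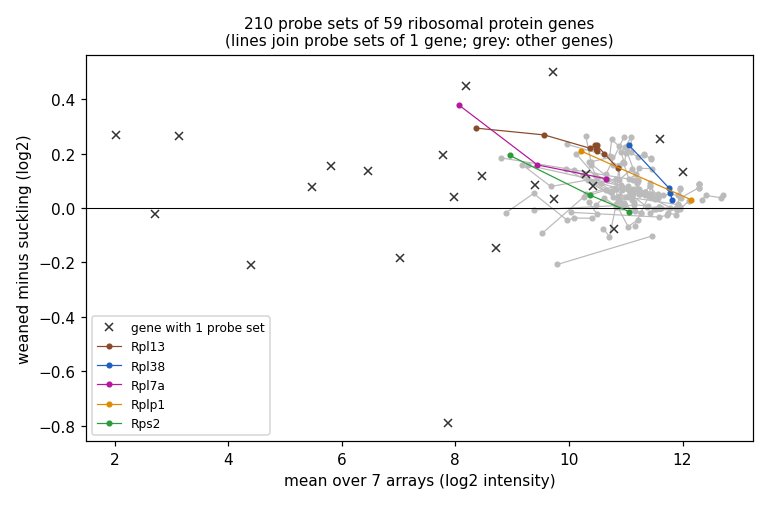
Difference of weaned minus suckling means against mean log2 intensity for the 210 probe sets of the 59 genes, with lines that join the probe sets of 1 gene and 5 genes in colour. The coloured lines of Rpl7a, Rps2, Rplp1, Rpl38 and Rpl13 rise from right to left, and Rpl34 is the lone cross at -0.79.

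Several members carry genes of small nucleolar RNAs in their introns, which guide modification of ribosomal RNA. By RefSeq gene order, 14 members hold 20 such genes, of which 12 in 9 host genes had a single-symbol probe set. The weaned mean was higher in 10 of the 12, the median log2 difference was 0.23, and 1 had an unadjusted p under 0.05, near the 7.58% of all genes that did in either direction. That was Snora70 in Rpl10, at 6.12, 6.30 and 6.62 log2 units on the weaned and 5.44, 6.22, 5.71 and 6.13 on the suckling arrays (0.48, SE 0.21, limma adjusted p = 0.651). The groups overlap, and its host Rpl10 differed by 0.026 (SE 0.097). Such probe sets also match the unspliced host transcript, so the small RNA and the intron cannot be told apart.

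Few other parts of the cytosolic ribosome were measured. Rpsa, which binds laminin as well as the ribosome, measured 11.7 ± 0.028 (SD) against 11.7 ± 0.041 log2 units (difference -0.032, SE 0.098), and Fau, whose product is a ubiquitin-like fusion with a small-subunit protein, differed by -0.0098 (SE 0.10). Other messenger RNAs with a TOP start, mainly of elongation and initiation factors, had 7 of 12 members higher and a median of 0.050. Eef2, the translocase, differed by -0.17 (SE 0.11) and Npm1, a nucleolar chaperone of ribosome assembly, by 0.21 (SE 0.15).

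Genes that make ribosomes were split in direction, and none of these lists had a member past an adjusted p of 0.05 by limma. RNA polymerase I and its factors, which transcribe ribosomal RNA, had 12 of 16 members higher in mean with a median of 0.14. Polr1b, the second largest subunit of that polymerase, was at 5.01 ± 0.12 (SD) against 4.58 ± 0.24 log2 units (0.43, SE 0.15, unadjusted p = 0.0154, limma adjusted p = 0.577), and Twistnb, another subunit, differed by 0.40 (SE 0.20). Factors of small-subunit assembly had 18 of 41 higher and a median of -0.023, with Dimt1, a ribosomal RNA methyltransferase (0.41, SE 0.16), and Nhp2 of the box H/ACA particles (0.39, SE 0.15) first by p. Factors of large-subunit assembly had 19 of 44 higher and a median of -0.031, with Nop16 (-0.35, SE 0.14) and the giant ATPase gene Mdn1 (-0.30, SE 0.15) first by p.

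Regulators of TOP messenger RNAs had 8 of 17 higher and a median of -0.0061, with Rheb, the activator of mTOR, at 0.24 (SE 0.17) and Larp4 at -0.19 (SE 0.14). The p53 response list, which excess free ribosomal proteins can set off, had 4 of 11 higher and a median of -0.036, with Sesn2 (-0.28, SE 0.17) and Zmat3 (-0.25, SE 0.15) first by p. The Myc network, in which Myc proteins favour ribosome production and the Mxd, Mxi1 and Mnt proteins oppose them, had 4 of 10 higher and a median of -0.071, with Mxi1 at 0.24 (SE 0.12) and Mycn at -0.29 (SE 0.19). For scale, 77 mitochondrial ribosomal protein genes, taken by symbol after the values were seen, had 61 higher in mean and a median of 0.12, beside the 45 of 59 and 0.048 of the cytosolic family. The difference between these families was not tested.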

How the data were processed

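The authors deposited 1 intensity per probe set and array, on a linear scale (1.45 to 12755). The submitters' processing notes name RMA and Partek 6.6; order and settings are not given in the sources used here. Per the labels' protocols, RNA was amplified with the Ovation Pico System V2. Log2 was taken here. All 7 columns were used. Of 35556 probe sets, 21789 carry a single symbol, 1621 several and 12146 none; 21698 of the 21789 were matched by gene ID to RefSeq (GRCm38.p6), which gave names, gene order and promoter sequence. The brightest probe set stood for each of 19938 genes, with no filter on dim genes.

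Groups were compared with limma 3.58.1 in R 4.3.3 (lmFit, eBayes), two-sided, with no covariate and Benjamini-Hochberg adjustment over all genes at 0.05, and the fit was tested on simulated data. Tables used pandas 2.3.3 in python 3.11.15. P-values rest on the spread between these mice, 1 array each, after limma drew it towards the spread of all genes. For members with a small spread of their own this widened the SE, as in Rps12 (pooled SD 0.019, SE 0.096). Their p-values and intervals therefore do not measure the spread between these mice alone. The members and lists were chosen with earlier results of these data known, so no test was made over a list. Described singly are the 10 members with the smallest p in each direction, the 5 brightest and 5 dimmest, those whose probe sets differ in sign, paralogs, stalk and 5S members, and of other lists the 2 with the smallest p; Rps6, Rps19, Rpl7a, Rpl8, Rpl13, Rpl38, Rpl19, Rpl23a, the other tunnel proteins and the small nucleolar RNA genes were added after their values were seen. Other settings of prior, scaling, filter, probe set, weights, covariate and arrays were tried.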

Additional observations from a re-analysis of the deposited data

Results flagged for a closer look

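In Rps21 the lowest suckling array, replicate 2 at 10.76 log2 units, lay farther from the other suckling arrays (10.88 to 10.90) than the spread among them allows at Dixon's 95% level: the gap was 0.885 of the range, where 0.829 is the limit for 4 samples. Rpl19 on suckling replicate 2 (11.03, the other 3 equal at 11.12) and Rps6 on suckling replicate 12 (11.46, others 11.50 to 11.51) also passed, the gap being the whole range in Rpl19 and 0.891 of it in Rps6; in both, suckling arrays carry exactly equal values. With the other 3 values equal, the gap in Rpl19 is the whole range however small it is, so its passing cannot show an outlier. Rps21, Rpl19 and Rps6 were 3 of 51 values checked, where chance gives about 1 in 20, a rate that need not hold where values are equal. Acinar markers were highest on suckling replicate 2, at a mean of 7.63 log2 units. On suckling replicate 9 they were at 7.50, with Rps21 at 10.88 and Rpl19 at 11.12, and on suckling replicate 12 at 5.00. The part of acinar signal in the low values of Rps21 and Rpl19 was not tested. Without that array the difference of Rps21 was 0.23 in place of 0.26.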

How the results depend on the processing

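No ribosomal protein gene passed an adjusted p of 0.05 under any alternative run, with 0.4252 as the smallest adjusted p by limma. Over all genes, 3 passed; the count was 9 with an intensity trend and robust prior, 5 with quantile normalization, 8 and 7 among genes above the median and the 25th percentile of level, 5 with the mean of probe sets, 0 without suckling replicates 2 and 9, and 1 to 3 with 1 array left out. At an unadjusted p under 0.05 the 4 members became 7 with the trend prior, 2 with array weights, 2 with the acinar covariate, 2 without suckling replicates 2 and 9, and 0 (without weaned replicate 12) to 4 with 1 array left out. The members' median of 0.048 was 0.07609 with the mean of probe sets, 0.117 with the dimmest probe set (an alternative chosen after seeing the data), and 0.03246 to 0.06655 with 1 array left out. The cause was not tested for any of these.

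The sign turned in 19 of the 45 members described singly, none of them past the threshold. With the dimmest probe set Rpl36a was 0.02131, Rps28 -0.00462, Rpl27 0.01168, Rpl6 -0.09334, Rps10 -0.01996, Rps12 0.002992, Rps15 -0.06471, Rps2 0.1934 and Rps7 -0.006788. With the mean of probe sets Rps10 was -0.006485, Rps12 0.01307 and Rps2 0.07608. Quantile normalization gave Rpl3l 0.01989, Rplp1 -0.009991, Rps7 -0.03104, Rpl23a -0.009462 and Rps6 -0.01302, and centring gave Rps10 -0.01938 and Rps7 -0.001957. Array weights gave Rpl3l 0.02595 and Rps12 0.002561, and the acinar covariate gave Rpl3l 0.03713, Rps12 0.01059 and Rpl7l1 -0.03308. Without suckling replicates 2 and 9, Rpl3l was 0.112, Rps10 -0.01239 and Rps12 0.01354. With 1 array left out, ranges that span 0 were -0.3535 to 0.07267 for Rps15a, -0.097 to 0.01087 for Rps4x, -0.1005 to 0.09967 for Rpl3l, -0.003815 to 0.07186 for Rplp1, -0.109 to 0.1185 for Rps10, -0.01056 to 0.009024 for Rps12, -0.06125 to 0.03024 for Rps2, -0.0234 to 0.0475 for Rps7, -0.01036 to 0.2948 for Rps27l, -0.006278 to 0.3083 for Rpl13, -0.03007 to 0.11 for Rpl23a and -0.01727 to 0.2113 for Rps19. No paired analysis was possible because the labels give no pairing of weaned with suckling mice. Replicate number 12 occurs in both groups, but nothing in the labels links those 2 mice.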
